A study of Mus musculus with 12 samples.

Results

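The proteasome subunits and the factors that assemble, open or restrain the particle were followed in the pancreas of mice with and without the transcription factor Mist1 that had been injected with saline or caerulein. Members were the genes with a single symbol made of Psm, a letter from a to g and a digit, which names the alpha and beta subunits of the 20S core, the ATPases and non-ATPases of its cap, the activators, the inhibitor PI31 and the assembly chaperones. These letters matched 48 of 12335 genes with a single symbol. Psmc3ip and Psme3ip1, which are named for proteins that bind a subunit and are not subunits, were set aside, which left 46 members on 83 probe sets. A gene was represented by its brightest probe set. Psma8, Psmb8, Psmb9 and Psmd10 were too dim to be tested, with mean log2 levels of 5.67, 4.87, 5.56 and 5.52 against a limit of 5.76, and 42 members were tested among 9481 genes. The dimmest members above that limit were Psmg4 at 6.14 and Psmg3 at 6.23. Psme2, whose probe set carries the symbols of several genes, was not a member.

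Each of the 4 groups held 3 pancreata, 1 per array and described in the series as biological replicates, from male mice of 2 to 4 months. Wild type mice were of the strain C57BL6, and the labels name no strain for the Mist1KO mice, so the genotype and any difference of strain cannot be told apart. Mice received saline or caerulein every hour for 4 hours and were killed at the end of that time, with a dose not given in the sources used here. Caerulein, an analogue of the gut hormone cholecystokinin, drives acinar cells to secrete and, in excess, produces pancreatitis. Mist1, encoded by Bhlha15, is a transcription factor of mature acinar cells, the cells that make digestive enzymes. Whole tissue was profiled, so fewer cells of a type and less RNA per cell cannot be told apart.

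The proteasome degrades proteins that carry chains of ubiquitin. Its 20S core is a barrel in which rings of beta subunits, some of them proteolytic, lie between outer rings of alpha subunits that form the gate. The cap that sits on this barrel has a base, whose ATPases unfold the substrate, and a lid, which removes the ubiquitin chain. Other caps, the activators of the PA28 and PA200 families, open the gate without using ATP, and interferon replaces the proteolytic beta subunits with forms that favour the making of peptides for MHC class I molecules. Acinar cells make and fold large amounts of secretory protein, and the proteasome degrades what fails to fold.

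Bhlha15 was lower on every Mist1KO array than on any wild type array, although the sources used here do not say whether its probe set lies in the deleted part. It gave signals of 1601, 1619 and 1624.3 in wild type saline pancreata, 776.8, 729.5 and 838.5 in wild type caerulein pancreata, 89.9, 95.9 and 106.8 in Mist1KO saline pancreata and 42.6, 38.3 and 79.4 in Mist1KO caerulein pancreata. Acinar markers were bright in all groups, and the sum of their signals had a median of 166987 after saline and 135902 after caerulein in the wild type, and of 117211 and 74088 in Mist1KO pancreata. The 50 brightest probe sets took 17.8% ± 1.56 (SD, n = 3) of the signal in wild type saline arrays and 9.70% ± 1.54 (SD, n = 3) in Mist1KO caerulein arrays. The hybridisation controls, which no mouse tissue makes, had a geometric mean of 933 ± 64.3 (SD, n = 3) in wild type saline and 315 ± 42.1 (SD, n = 3) in Mist1KO caerulein arrays. The trimmed mean signal was alike on all arrays, and the median signal ran from 70.6 to 90.15. The part of these differences in the results on proteasome genes was not tested.

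Levels and changes are given on the log2 scale after 18.7 was added to each signal, which understates the changes of dim genes. A gene is said to have risen or fallen where the adjusted p of limma's moderated test was below 0.05, with adjustment over all 15716 probe sets tested. A p sets a difference against the spread between pancreata within all 4 groups, moderated by that of the other probe sets. It speaks for the pancreata of these groups only. Caerulein raised 1 and lowered 2 of the 42 members in the wild type (2.38% and 4.76%), where it raised 8.74% and lowered 9.96% of all genes. In Mist1KO pancreata it raised 4 and lowered 9 members (9.52% and 21.4%), against 10.2% and 14% of all genes. Single arrays moved these counts: the 9 falls became 3 without Mist1KO caerulein replicate 2, 5 without caerulein replicate 1 and 4 without saline replicate 2 or 3, and the 4 rises became 2 without caerulein replicate 1. In the wild type the 2 falls became 5 without caerulein replicate 1, 4 without saline replicate 2 and 1 without replicate 3 of either group, and the single rise became 2 without caerulein replicate 2. The median change of the members was -0.19 in the wild type and -0.15 in Mist1KO pancreata, beside -0.16 and -0.14 for all genes. Most changes of members were small. The median size of a member's change was 0.27 and 0.29 in either direction, against 0.32 and 0.33 for all genes, and the standard error of a change had a median of 0.16 over the members. No member moved by 2-fold or more in the wild type and 1 did in Mist1KO pancreata, whereas 7.66% and 9.17% of all genes did so. With the arrays centred on their medians, which moves the median change of all probe sets tested from -0.14 to -0.01 in the wild type and from -0.13 to -0.01 in Mist1KO pancreata, 4 members rose and 1 fell in the wild type (10.7% and 5.41% of all genes) and 4 rose and 4 fell in Mist1KO pancreata (12.3% and 9.13% of all genes).

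**Figure D1:**
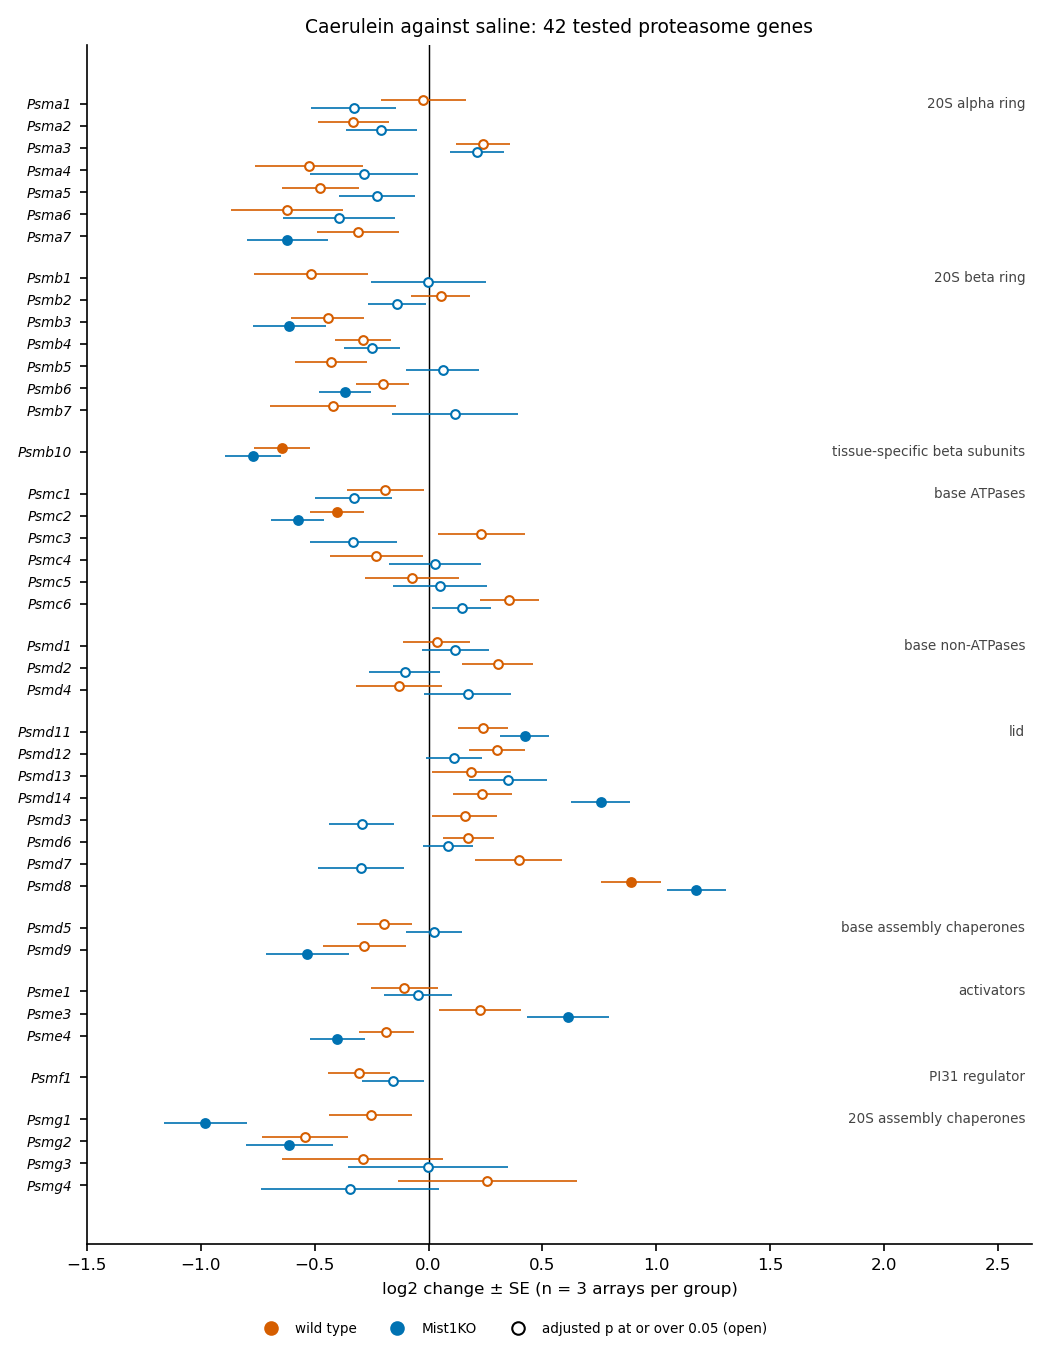
Change after caerulein of the 42 tested proteasome genes, grouped by their place in the particle, on the log2 scale with the standard error (3 arrays a group) for wild type and Mist1KO pancreata. Filled points passed the test and open points did not. Psmd8 lies farthest to the right in both genotypes, at 0.89 and 1.18, and Psmg1 in Mist1KO pancreata farthest to the left, at -0.98.

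The lid held the member with the largest rise. Psmd8, the lid subunit Rpn12, gave signals of 757.4, 543.1 and 679.1 in wild type saline pancreata and 1323.1, 1161.7 and 1202.7 after caerulein. In Mist1KO pancreata it gave 644.9, 749.6 and 599.9 after saline and 1446.6, 1590.8 and 1525.4 after caerulein. The caerulein arrays were above the saline arrays without overlap in both genotypes, and the lowest caerulein array lay well over the highest saline array. Psmd8 rose 1.85-fold in the wild type (0.89 ± 0.13 SE, adjusted p = 0.000319) and 2.26-fold in Mist1KO pancreata (1.18 ± 0.13 SE, adjusted p = 1.97e-05). Between genotypes it did not pass the test after saline (0.02 ± 0.13 SE, adjusted p = 0.946) or after caerulein (0.30 ± 0.13 SE, adjusted p = 0.12).

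Psmd14 is the lid's deubiquitinase Rpn11, which cuts the whole ubiquitin chain from a substrate as it enters. Its signals were 312.7, 348.4 and 323.4 in wild type saline arrays and 457.8, 344.8 and 373.8 in wild type caerulein arrays, which overlapped. In Mist1KO pancreata they were 402.9, 416.9 and 340.4 after saline and 656.9, 710.7 and 625.7 after caerulein, with no overlap. Psmd14 rose 1.69-fold in Mist1KO pancreata (0.76 ± 0.13 SE, adjusted p = 0.000745), and in the wild type its change of 0.24 ± 0.13 SE did not pass the test (adjusted p = 0.23). After caerulein it was 1.67-fold higher in Mist1KO than in wild type pancreata (0.74 ± 0.13 SE, adjusted p = 0.00134).

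The promoters of both genes are shown because they are the members whose rise after caerulein was largest. Each is the window of 300 bases in the RefSeq table of build GRCm38.p6, from 250 bases before the annotated start of the gene to 50 bases after it, read 5′ to 3′ on the strand of the gene. Capitals mark matches to a searched motif on either strand.
Psmd8 (chr7:29180624-29180923, minus strand): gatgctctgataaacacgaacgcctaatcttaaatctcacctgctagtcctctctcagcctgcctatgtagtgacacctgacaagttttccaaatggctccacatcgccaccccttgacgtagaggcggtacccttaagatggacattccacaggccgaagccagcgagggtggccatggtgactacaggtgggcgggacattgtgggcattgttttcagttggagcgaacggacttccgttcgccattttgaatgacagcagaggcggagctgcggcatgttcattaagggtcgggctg
Psmd14 (chr2:61711444-61711743, plus strand): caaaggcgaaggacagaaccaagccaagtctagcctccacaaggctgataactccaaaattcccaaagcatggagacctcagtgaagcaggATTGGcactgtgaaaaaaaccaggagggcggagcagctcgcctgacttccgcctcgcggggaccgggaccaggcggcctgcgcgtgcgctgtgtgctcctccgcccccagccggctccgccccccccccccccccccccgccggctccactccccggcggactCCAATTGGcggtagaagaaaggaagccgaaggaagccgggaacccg
The motifs searched were TGACNNNGC (the core of the antioxidant response element), TGATGNAA (a composite site for C/EBP and ATF factors), GAAANNGAA (the core of the interferon-stimulated response element), CCAAT and GAANNTTC (a pair of heat shock element units). The Psmd8 window held none of these letters. The Psmd14 window held CCAAT 3 times, of which 2 overlap as CCAATTGG just after the start. A window was found for 38 members, 40 windows in all. TGACNNNGC stood in 6 of the 40 (15%, in the promoters of Psmb5, Psmb6, Psmc6, Psmd12, Psmd9 and Psme4) against 12.4% of all 32851 windows in the table, CCAAT in 13 (32.5%) against 37.4%, GAANNTTC in 3 (7.5%) against 7.86% and TGATGNAA in 1 (2.5%) against 3.97%. GAAANNGAA stood in 7 (17.5%), in the promoters of Psmb3, Psmb4, Psmc2, Psmd4, Psmd9, Psme1 and Psmg4, against 8.56% of all windows. The windows of members had a median GC content of 57.9%, and all windows 52.7%. A match describes the letters of the window and shows no bound factor.

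The other lid members changed less. Psmd11, the scaffold subunit Rpn6, gave 490.3, 494.6 and 577.6 in wild type saline, 582.8, 602.9 and 666.6 in wild type caerulein, 609.7, 657.7 and 625.2 in Mist1KO saline and 896.3, 819.1 and 840.8 in Mist1KO caerulein arrays. It rose in Mist1KO pancreata (0.42 ± 0.11 SE, adjusted p = 0.0111) and its change of 0.24 ± 0.11 SE in the wild type did not pass (adjusted p = 0.143), although the wild type groups did not overlap either. The rise of Psmd11 in Mist1KO pancreata did not pass without Mist1KO caerulein replicate 1 (0.39, adjusted p = 0.0532), after quantile normalization (0.29, adjusted p = 0.0722) or with the mean of all probe sets of the gene (0.06, adjusted p = 0.787), and over all alternatives its adjusted p ran from 0.00386 to 0.787. Its other probe sets differed: one had a fall of -0.42 ± 0.11 SE in the wild type (adjusted p = 0.0135), and another a change of 0.59 ± 0.21 SE in Mist1KO pancreata (adjusted p = 0.055). The probe set that fell in the wild type had a change of -0.17 in Mist1KO pancreata. The rest of the tested probe sets of Psmd11 had changes of -0.15, -0.24 and -0.10 there, and none of these passed.

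All 8 lid members had a change above 0 after caerulein in the wild type, from 0.16 to 0.89 with a median of 0.24, although only Psmd8 passed. Of the 42 tested members 16 were above 0, and all genes had a median of -0.16 and an upper quartile of 0.15. Whether the lid differs from other genes was not tested. In Mist1KO pancreata the changes of the lid members ran from -0.30 to 1.18 with a median of 0.23. Psmd8, Psmd14 and Psmd11 rose there, and Psmd3 (Rpn3) and Psmd7 (Rpn8, the partner of Rpn11) had changes of -0.29 ± 0.14 SE and -0.30 ± 0.19 SE that did not pass. Psmd6 (Rpn7), next to Psmd8 in mean signal within the lid, gave 958.3, 918.8 and 924.1 in wild type saline and 1034.6, 1157.8 and 984.1 in wild type caerulein arrays, a change of 0.18 ± 0.11 SE that did not pass (adjusted p = 0.295). Set against the wild type saline mean of each gene, the median of the lid members was 0.28, 0.28 and 0.21 on the wild type caerulein arrays and 0.38, 0.22 and 0.31 on the Mist1KO caerulein arrays. On the Mist1KO saline arrays it was 0.10, 0.17 and 0.15.

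The core's subunits had changes mostly below 0. The median over all genes was also below 0, at -0.16 in the wild type and -0.14 in Mist1KO pancreata. The median change after caerulein was -0.33 over the 7 tested alpha subunits and -0.42 over the 7 constitutive beta subunits in the wild type, where none of the 14 passed, and -0.28 and -0.14 in Mist1KO pancreata, where Psma7, Psmb3 and Psmb6 fell. Against the wild type saline means, the median of the beta subunits was -0.29, -0.23 and -0.53 on the wild type caerulein arrays and -0.13, -0.15 and -0.10 on the Mist1KO caerulein arrays. The alpha subunits had medians of -0.11, -0.52 and -0.41 and of -0.14, -0.47 and 0.05 on the same arrays. All genes tested had medians of -0.09, -0.13 and -0.16 and of -0.24, -0.30 and -0.17 there. The beta subunits thus lay below all genes on the wild type caerulein arrays and above them on the Mist1KO caerulein arrays. They already lay above all genes on the Mist1KO saline arrays, with medians of 0.13, 0.11 and 0.11 against -0.10, -0.05 and -0.08. Centring the arrays on their medians raises every change after caerulein by a like amount, and with it the median over all members was -0.06 in the wild type and -0.02 in Mist1KO pancreata.

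**Figure D2:**
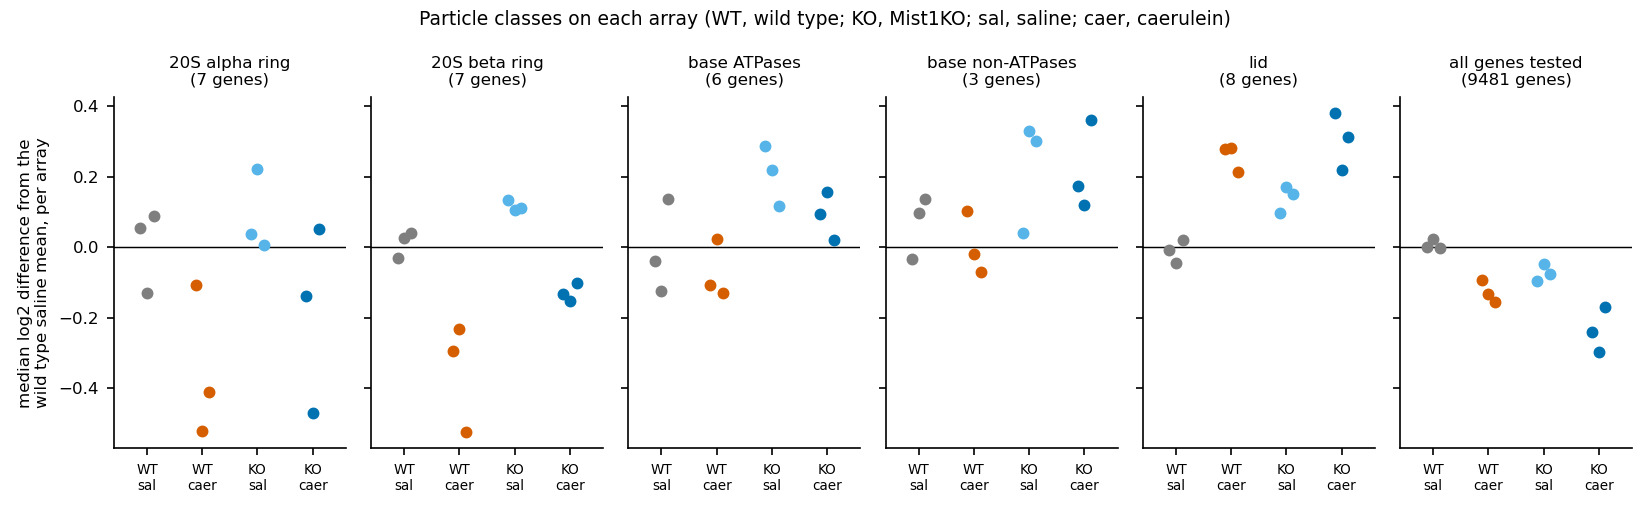
Median level of each class of proteasome genes on each of the 12 arrays, as the log2 difference from the wild type saline mean of each gene. Each point is 1 array. The lid lies between 0.21 and 0.38 on the 6 caerulein arrays, the beta ring between -0.53 and -0.10 and all genes between -0.30 and -0.09.

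Psma7, an alpha subunit, gave 255.6, 282.8 and 294.8 in Mist1KO saline and 188.5, 132.3 and 209.6 in Mist1KO caerulein arrays, with no overlap. It fell by 0.62 ± 0.18 SE (adjusted p = 0.0214, and from 0.0129 to 0.109 over the alternatives). The call was lost without Mist1KO saline replicate 2 (0.0612) or 3 (0.0737) or Mist1KO caerulein replicate 2 (0.109), and a second probe set of Psma7 had a change of -0.08 ± 0.16 SE (adjusted p = 0.752). Psmb3, a beta subunit without proteolytic activity, gave 229.2, 256.5 and 202.3 after saline and 149.6, 116.8 and 166.5 after caerulein in the same mice, also without overlap. It fell by 0.61 ± 0.16 SE (adjusted p = 0.0128, and from 0.00974 to 0.103 over the alternatives). Its call was lost without Mist1KO saline replicate 2 (0.0586) or Mist1KO caerulein replicate 2 (0.0687), and its second probe set had a change of -0.09 ± 0.19 SE (adjusted p = 0.792).

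Psmb6 and Psmb5 are catalytic subunits, with caspase-like and chymotrypsin-like activity. Psmb6 gave 395.5, 398.3 and 459.6 in Mist1KO saline and 334.2, 288.8 and 336.1 in Mist1KO caerulein arrays and fell by 0.37 ± 0.12 SE (adjusted p = 0.033, and from 0.0212 to 0.16 over the alternatives). This call was lost when any of 5 of the 6 Mist1KO arrays was left out, at 0.0536, 0.0561 and 0.141 without saline replicate 1, 2 or 3 and at 0.0617 and 0.138 without caerulein replicate 1 or 2. Psmb5 gave 598.8, 478.3 and 621.0 in wild type saline, 370.5, 493.2 and 384.8 in wild type caerulein, 359.4, 514.3 and 491.6 in Mist1KO saline and 460.1, 504.1 and 448.5 in Mist1KO caerulein arrays. These groups overlapped in both genotypes, and Psmb5 passed in no comparison, although after quantile normalization it was called lower after caerulein in the wild type. Psma4, the brightest probe set of the alpha ring, likewise overlapped between saline (1102.9, 977.5 and 1110.5) and caerulein (1221.3, 662.2 and 482.6) in the wild type and passed in no comparison.

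Psmb10 was the single member that passed in all 4 comparisons, as 1.3% of all genes did. It encodes the trypsin-like beta subunit that interferon induces in place of Psmb7. Its signals were 613.7, 638.2 and 604.1 in wild type saline, 339.5, 424.3 and 409.8 in wild type caerulein, 347.2, 413.8 and 410.5 in Mist1KO saline and 226.0, 232.6 and 203.7 in Mist1KO caerulein arrays. The wild type saline arrays were the highest and the Mist1KO caerulein arrays the lowest, and the other 2 groups lay over each other between them. Psmb10 fell 1.56-fold after caerulein in the wild type (-0.64 ± 0.12 SE, adjusted p = 0.00247) and 1.71-fold in Mist1KO pancreata (-0.77 ± 0.12 SE, adjusted p = 0.000437). In Mist1KO pancreata it was 1.56-fold lower than in the wild type after saline (-0.64 ± 0.12 SE, adjusted p = 0.00503) and 1.71-fold lower after caerulein (-0.77 ± 0.12 SE, adjusted p = 0.000719). The comparisons share their groups in pairs, so these values are not independent of each other.

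The promoter window of Psmb10, shown because no other member passed in every comparison, held none of the searched letters.
Psmb10 (chr8:105938343-105938642, minus strand): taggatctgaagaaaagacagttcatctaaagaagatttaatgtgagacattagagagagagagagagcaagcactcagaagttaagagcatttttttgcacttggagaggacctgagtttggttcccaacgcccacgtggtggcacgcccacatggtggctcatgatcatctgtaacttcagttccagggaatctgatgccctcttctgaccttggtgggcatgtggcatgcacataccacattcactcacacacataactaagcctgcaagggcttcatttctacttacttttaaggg
The other interferon-induced beta subunits were dim. Psmb8 gave 10.0, 6.9 and 11.5 in wild type saline, 5.8, 7.7 and 6.5 in wild type caerulein, 7.4, 20.2 and 17.5 in Mist1KO saline and 13.8, 12.9 and 9.3 in Mist1KO caerulein arrays. Psmb9 gave 14.8, 35.5 and 55.4, then 38.0, 11.7 and 7.9, then 10.7, 76.2 and 46.6, then 41.0, 13.7 and 35.1 in the same order of groups. The signals of Psmb8 were low on every array, and those of Psmb9 varied within each group and exceeded 35.4, the signal at the limit for testing, on several arrays. The mean log2 level of each lay below the limit, so neither was tested. Psmb7, the constitutive counterpart of Psmb10, gave 596.5, 213.3 and 297.1 in wild type saline and 252.7, 269.9 and 222.1 in wild type caerulein arrays, which overlapped, and passed in no comparison.

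White blood cells carry much of the interferon-induced proteasome of a tissue, so their markers are given beside Psmb10. The summed signal of the 17 leukocyte markers found, among them Ptprc, Cd74 and Cd79a, ran from 2609.4 to 4786.5 in wild type saline, 2190.5 to 2450.6 in wild type caerulein, 2452.0 to 4272.9 in Mist1KO saline and 3155.7 to 4282.6 in Mist1KO caerulein arrays. The other 3 were too dim to be tested, and none was at 0. Of the 14 tested, Cd79a, Adgre1, Fcer1g and Jchain fell after caerulein in the wild type, and Jchain rose in Mist1KO pancreata. Over all genes 9.96% fell in the wild type and 10.2% rose in Mist1KO pancreata. After saline Cd3e, and after caerulein Jchain, was higher in Mist1KO than in wild type pancreata, as were 6.14% and 9.03% of all genes. The part of these cells in the values of Psmb10 was not tested.

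The base followed no single direction. Its ATPases, which unfold the substrate, had a median change after caerulein of -0.13 in the wild type and -0.15 in Mist1KO pancreata, and Psmc2 alone passed. Psmc2 (Rpt1) gave 689.0, 744.2 and 823.7 in wild type saline, 537.1, 610.7 and 545.3 in wild type caerulein, 562.8, 696.4 and 652.3 in Mist1KO saline and 428.0, 399.4 and 433.1 in Mist1KO caerulein arrays. The caerulein arrays lay below the saline arrays in both genotypes. Psmc2 fell by 0.40 ± 0.12 SE in the wild type (adjusted p = 0.028) and by 0.58 ± 0.12 SE in Mist1KO pancreata (adjusted p = 0.00268), and after caerulein it was 1.33-fold lower in Mist1KO pancreata (-0.41 ± 0.12 SE, adjusted p = 0.0249).

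The falls of Psmc2 rest on 1 of its 2 probe sets. The other had changes of 0.10 ± 0.11 SE in the wild type (adjusted p = 0.552), 0.16 ± 0.11 SE in Mist1KO pancreata (adjusted p = 0.348) and -0.10 ± 0.11 SE between the genotypes after caerulein (adjusted p = 0.548). The call in the wild type was lost without wild type saline replicate 2 (0.0557) or 3 (0.0945) or wild type caerulein replicate 1 (0.072) or 3 (0.0843), within a range of 0.00833 to 0.277 over the alternatives. That between genotypes was lost without wild type caerulein replicate 2 (0.0944) or Mist1KO caerulein replicate 1 (0.0599) or 2 (0.0856), within a range of 0.0232 to 0.0944. With the arrays centred, Psmc2 passed in Mist1KO pancreata only. Psmc6 (Rpt4) gave 293.6, 270.6 and 317.6 in wild type saline and 424.2, 322.2 and 402.7 in wild type caerulein arrays. Its change of 0.36 ± 0.13 SE (adjusted p = 0.0738) passed with the arrays centred, as did that of the lid member Psmd12 and of Psmd11. Another probe set of Psmc6 had the opposite sign. Its changes were -0.52 ± 0.28 SE in the wild type (adjusted p = 0.213) and -0.47 ± 0.28 SE in Mist1KO pancreata (adjusted p = 0.252).

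The 3 base subunits that are not ATPases did not pass after caerulein. Psmd4 (Rpn10), a receptor for ubiquitin chains, gave 233.6, 145.5 and 292.6 in wild type saline, 206.2, 201.9 and 179.8 in wild type caerulein, 261.4, 294.9 and 299.3 in Mist1KO saline and 347.6, 299.1 and 325.0 in Mist1KO caerulein arrays. After caerulein it was 1.6-fold higher in Mist1KO pancreata, with no overlap (0.67 ± 0.19 SE, adjusted p = 0.0232). That call was lost without wild type caerulein replicate 2 (0.0521) or 3 (0.0749) or Mist1KO caerulein replicate 1 (0.0814) or 3 (0.0535), within a range of 0.00325 to 0.0814 over the alternatives. A second probe set of Psmd4 had a difference of 0.31 ± 0.17 SE (adjusted p = 0.207). Psmd2 (Rpn1), which holds substrates and shuttle factors, gave 193.0, 265.5 and 264.2 in wild type saline and 257.6, 296.5 and 349.6 in wild type caerulein arrays, overlapped and passed in no comparison.

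The assembly chaperones of the core had a median change after caerulein of -0.27 in the wild type and -0.48 in Mist1KO pancreata. Psmg1 (PAC1), which with Psmg2 (PAC2) guides the building of the alpha ring, gave 191.3, 263.3 and 264.3 in wild type saline, 205.2, 198.1 and 184.9 in wild type caerulein, 363.1, 217.6 and 329.9 in Mist1KO saline and 145.1, 131.1 and 148.0 in Mist1KO caerulein arrays. The Mist1KO caerulein arrays were the lowest of all 12. Psmg1 fell 1.97-fold in Mist1KO pancreata (-0.98 ± 0.18 SE, adjusted p = 0.0014), and its change in the wild type was -0.25 ± 0.18 SE (adjusted p = 0.358).

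Psmg2 gave 188.5, 141.7 and 186.2 in wild type saline, 141.7, 93.5 and 103.6 in wild type caerulein, 200.2, 149.3 and 217.6 in Mist1KO saline and 110.0, 108.5 and 130.4 in Mist1KO caerulein arrays. It fell by 0.61 ± 0.19 SE in Mist1KO pancreata (adjusted p = 0.0311, and from 0.0115 to 0.127 over the alternatives), where the groups did not overlap, and its change of -0.54 ± 0.19 SE in the wild type did not pass (adjusted p = 0.0624). The call was lost without Mist1KO saline replicate 1 (0.0975) or 3 (0.127) or Mist1KO caerulein replicate 1 (0.097) or 2 (0.1), while a second probe set of Psmg2 fell by 0.74 ± 0.22 SE (adjusted p = 0.0253). Psmg3 and Psmg4 were dim and passed in no comparison. Psmg4 gave 3.5, 70.5 and 46.7 in wild type saline and 86.3, 90.7 and 71.4 in Mist1KO saline arrays, a difference of 2-fold (SE 0.39 on the log2 scale, the largest among the members) that did not pass (adjusted p = 0.111).

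Of the chaperones of the base, Psmd9 (p27) gave 122.0, 180.8 and 168.8 in Mist1KO saline and 108.7, 92.7 and 104.0 in Mist1KO caerulein arrays. It fell by 0.53 ± 0.18 SE (adjusted p = 0.0483), a call that 16 of 21 alternatives ended. The adjusted p was 0.0528 without wild type saline replicate 2 and 0.0559, 0.058 and 0.0592 without wild type caerulein replicate 1, 2 or 3. It was 0.171 and 0.147 without Mist1KO saline replicate 2 or 3 and 0.0858, 0.15 and 0.0793 without Mist1KO caerulein replicate 1, 2 or 3, within a range of 0.0243 to 0.175. A second probe set of Psmd9 had a change of -0.09 ± 0.24 SE (adjusted p = 0.822). Psmd5 (S5b), which holds the base ATPases before they join the core, gave 316.5, 371.1 and 339.6 in wild type saline and 318.9, 274.5 and 296.8 in wild type caerulein arrays and passed in no comparison. Psmd10 (gankyrin) was too dim to be tested.

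Among the activators, Psme3 (PA28 gamma, a nuclear cap) gave 209.1, 153.7 and 185.8 in wild type saline, 226.2, 216.4 and 204.4 in wild type caerulein, 112.0, 166.2 and 190.2 in Mist1KO saline and 235.1, 271.0 and 226.8 in Mist1KO caerulein arrays. Psme3 rose by 0.61 ± 0.18 SE in Mist1KO pancreata, with no overlap (adjusted p = 0.0223, and from 0.00447 to 0.104 over the alternatives), and its change of 0.23 ± 0.18 SE in the wild type did not pass (adjusted p = 0.405). The call was lost without Mist1KO saline replicate 1 (0.104) or Mist1KO caerulein replicate 1 (0.0546) or 2 (0.0924). A second, dimmer probe set of Psme3 rose in both genotypes, by 0.75 ± 0.15 SE in the wild type (adjusted p = 0.00344) and 0.55 ± 0.15 SE in Mist1KO pancreata (adjusted p = 0.0164).

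Psme4 (PA200), another nuclear cap, moved the other way. It gave 650.9, 602.1 and 564.3 in wild type saline, 487.8, 599.4 and 508.5 in wild type caerulein, 485.6, 553.9 and 537.1 in Mist1KO saline and 395.1, 359.2 and 427.2 in Mist1KO caerulein arrays. The Mist1KO caerulein arrays lay below every other array. Psme4 fell by 0.40 ± 0.12 SE after caerulein in Mist1KO pancreata (adjusted p = 0.0262) and was 1.33-fold lower than in the wild type after caerulein (-0.41 ± 0.12 SE, adjusted p = 0.0264). The fall was lost without Mist1KO saline replicate 2 (0.0907) or 3 (0.0803) or Mist1KO caerulein replicate 1 (0.0696) or 2 (0.109), within a range of 0.0112 to 0.13 over the alternatives. The difference between genotypes was lost without wild type caerulein replicate 2 (0.11) or Mist1KO caerulein replicate 1 (0.0691) or 2 (0.104), within a range of 0.00645 to 0.11, and neither passed with the arrays centred. A second probe set of Psme4 passed in both comparisons (-0.48 ± 0.13 SE, adjusted p = 0.0174, and -0.71 ± 0.13 SE, adjusted p = 0.00213), and another in neither (-0.42 ± 0.15 SE, adjusted p = 0.0535, and -0.37 ± 0.15 SE, adjusted p = 0.0942).

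Psmf1 (PI31), which binds the core and restrains it in the test tube, gave 278.4, 263.8 and 322.9 in wild type saline, 229.2, 222.2 and 235.6 in wild type caerulein, 261.1, 258.4 and 219.2 in Mist1KO saline and 250, 195.7 and 212.9 in Mist1KO caerulein arrays. Its brightest probe set had changes of -0.31 ± 0.14 SE in the wild type (adjusted p = 0.139) and -0.16 ± 0.14 SE in Mist1KO pancreata (adjusted p = 0.457), neither of which passed. Of the 3 other tested probe sets of Psmf1, 2 fell in the wild type, by 0.55 ± 0.18 SE (adjusted p = 0.0495) and 1.15 ± 0.25 SE (adjusted p = 0.00625), and the latter also in Mist1KO pancreata, by 0.83 ± 0.25 SE (adjusted p = 0.0282). The remaining one did not pass (-1.14 ± 0.45 SE in the wild type, adjusted p = 0.094, and -1.03 ± 0.45 SE in Mist1KO pancreata, adjusted p = 0.116).

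Between the genotypes the median member was slightly higher in Mist1KO pancreata. After saline 3 members were higher and 1 lower (7.14% and 2.38%), where 6.14% of all genes were higher and 6.95% lower. After caerulein 7 were higher and 3 lower (16.7% and 7.14%), where 9.03% of all genes were higher and 11.6% lower. With the arrays centred the count after caerulein was 7 higher and 1 lower, against 11.1% and 8.73% of all genes, and after saline it was again 3 and 1. The 3 lower members after caerulein became 1 without wild type caerulein replicate 2 or Mist1KO caerulein replicate 1 or 2. The median difference of the members was 0.11 after saline and 0.09 after caerulein, beside -0.09 for all genes after both. These comparisons share arrays with those of caerulein and are not independent of them.

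**Figure D3:**
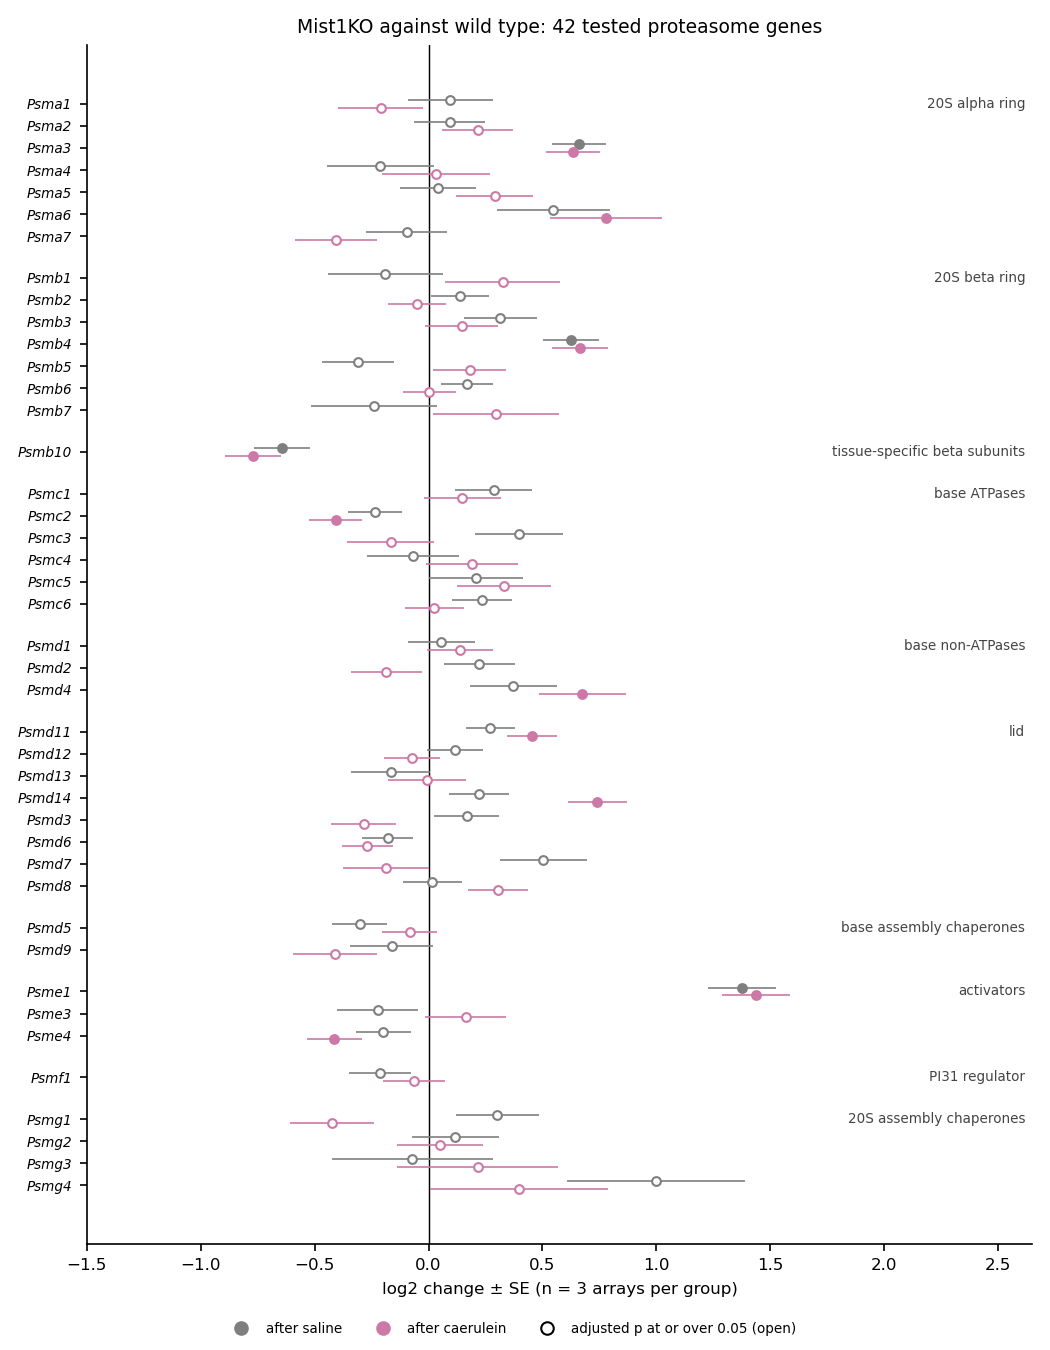
Difference of Mist1KO from wild type pancreata for the 42 tested proteasome genes, on the log2 scale with the standard error (3 arrays a group), after saline and after caerulein. Filled points passed the test and open points did not. Psme1 lies farthest to the right, at 1.38 and 1.44, and Psmb10 farthest to the left, at -0.64 and -0.77.

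Psme1 (PA28 alpha) differed most between the genotypes. This activator forms a ring with the product of Psme2, caps the core and is induced by interferon. Its signals were 180.1, 205.2 and 157.4 in wild type saline, 211.5, 151.8 and 141.6 in wild type caerulein, 470.7, 520.3 and 502.2 in Mist1KO saline and 475.2, 480.2 and 488.1 in Mist1KO caerulein arrays. All 6 Mist1KO arrays lay far above all 6 wild type arrays, and the caerulein arrays overlapped the saline arrays in both genotypes. Psme1 was 2.6-fold higher in Mist1KO pancreata after saline (1.38 ± 0.15 SE, adjusted p = 7.61e-05) and 2.71-fold higher after caerulein (1.44 ± 0.15 SE, adjusted p = 2.33e-05). Its changes after caerulein were -0.11 ± 0.15 SE in the wild type (adjusted p = 0.659) and -0.05 ± 0.15 SE in Mist1KO pancreata (adjusted p = 0.861).

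Psma3 and Psmb4 were the core subunits that were higher in Mist1KO pancreata after both injections. Psma3, an alpha subunit, gave 455.0, 398.0 and 468.3 in wild type saline, 556.2, 461.3 and 555.3 in wild type caerulein, 746.3, 652.9 and 719.7 in Mist1KO saline and 771.7, 881.2 and 812.7 in Mist1KO caerulein arrays. It was 1.58-fold higher after saline (0.66 ± 0.12 SE, adjusted p = 0.00313) and 1.55-fold higher after caerulein (0.63 ± 0.12 SE, adjusted p = 0.00199). Psmb4, a beta subunit without proteolytic activity, gave 353.4, 419.9 and 403.1, then 345.9, 312.2 and 295.9, then 651.1, 542.1 and 654.6, then 496.8, 494.9 and 553.0 in the same order of groups. The wild type and Mist1KO arrays did not overlap for either gene. Psmb4 was 1.54-fold higher after saline (0.63 ± 0.12 SE, adjusted p = 0.00549) and 1.59-fold higher after caerulein (0.67 ± 0.12 SE, adjusted p = 0.00181). A second probe set of Psmb4 was higher after both (0.63 ± 0.18 SE, adjusted p = 0.0332, and 0.57 ± 0.18 SE, adjusted p = 0.0358).

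The promoter windows of Psme1 and Psmb4 are shown because both genes were higher in Mist1KO pancreata after both injections and both windows hold the letters GAAANNGAA, read on the opposite strand. In Psme1 the match starts 10 bases after the annotated start of the gene, and in Psmb4 it starts 3 bases before it.
Psme1 (chr14:55578244-55578543, plus strand): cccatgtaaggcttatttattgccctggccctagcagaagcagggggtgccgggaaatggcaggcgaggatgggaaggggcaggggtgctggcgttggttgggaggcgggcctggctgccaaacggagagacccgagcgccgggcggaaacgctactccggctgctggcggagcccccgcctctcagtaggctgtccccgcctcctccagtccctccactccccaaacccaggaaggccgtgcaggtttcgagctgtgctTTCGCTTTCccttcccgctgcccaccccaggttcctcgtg
Psmb4 (chr3:94886909-94887208, minus strand): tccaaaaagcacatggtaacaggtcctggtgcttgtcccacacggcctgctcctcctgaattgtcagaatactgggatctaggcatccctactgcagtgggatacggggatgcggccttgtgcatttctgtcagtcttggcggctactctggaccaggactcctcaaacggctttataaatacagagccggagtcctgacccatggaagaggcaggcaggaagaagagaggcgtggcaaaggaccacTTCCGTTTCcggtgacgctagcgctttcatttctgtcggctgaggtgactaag
The window of Psma3 held CCAAT and no GAAANNGAA. Of the other members with GAAANNGAA, after caerulein Psmd4 was higher (0.67) and Psmc2 lower (-0.41) in Mist1KO pancreata. Psmb3, Psmd9 and Psmg4 passed in neither comparison of the genotypes. The windows of Psme1 and Psmb4 were picked for both traits, and a link between the letters and the genotype was not tested.

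Psma6, an alpha subunit, was higher in Mist1KO pancreata after caerulein (0.78 ± 0.25 SE, adjusted p = 0.0385). Its signals were 464.9, 316.9 and 239.0 in wild type caerulein and 440.3, 604.9 and 719.4 in Mist1KO caerulein arrays, which overlapped, and 594.6, 360.9 and 636.8 in wild type saline and 805.3, 681.1 and 809.5 in Mist1KO saline arrays. The call was lost without wild type caerulein replicate 2 (0.0962) or 3 (0.153), Mist1KO caerulein replicate 2 (0.107) or 3 (0.133) or Mist1KO saline replicate 1 (0.0501) or 3 (0.0505), within a range of 0.0115 to 0.153 over the alternatives. A second probe set of Psma6 was higher after saline (0.72 ± 0.13 SE, adjusted p = 0.00352) and after caerulein (0.93 ± 0.13 SE, adjusted p = 0.000272), and another was not (-0.25 ± 0.30 SE after caerulein, adjusted p = 0.594). Psmd11 was 1.37-fold higher in Mist1KO pancreata after caerulein (0.45 ± 0.11 SE, adjusted p = 0.00914) but not with the mean of all its probe sets (0.11, adjusted p = 0.585), within a range of 0.00533 to 0.585.

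**Figure D4:**
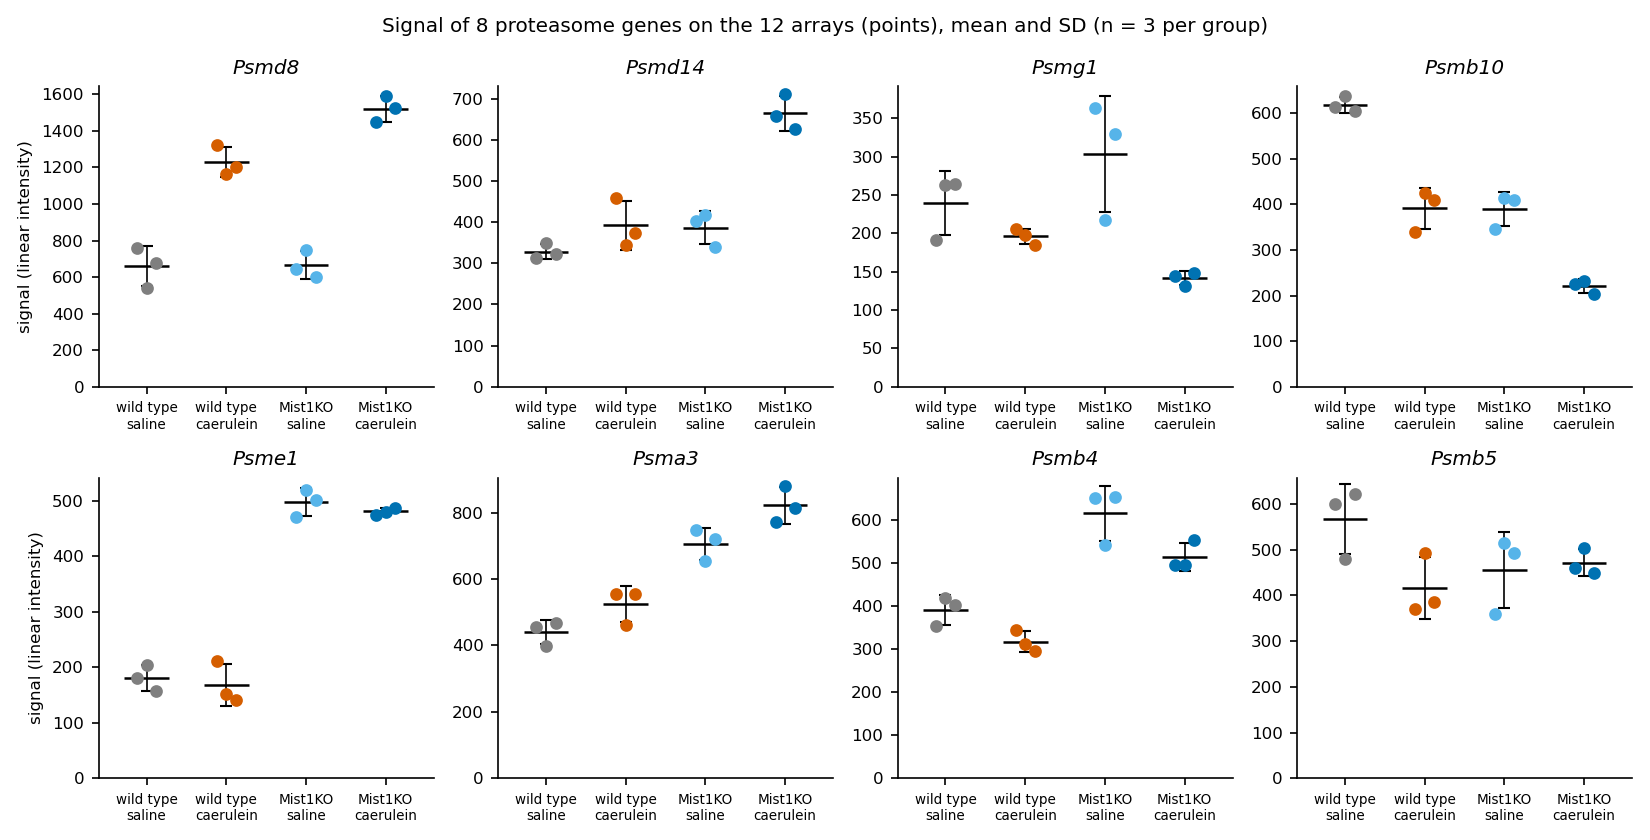
Signals (linear intensity) on each of the 12 arrays for 8 proteasome genes in the 4 groups, with each point 1 array and the bars the mean and SD of a group (n = 3). The Mist1KO arrays of Psme1 lie between 470.7 and 520.3 and the wild type arrays between 141.6 and 211.5, and the caerulein arrays of Psmd8 lie between 1161.7 and 1590.8 and the saline arrays between 543.1 and 757.4.

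Whether caerulein acted differently in the 2 genotypes was tested as the interaction of genotype and injection. No member passed in limma's test, in either direction. Of all genes 1.48% passed with a positive interaction, a signed change that is higher in Mist1KO pancreata, and 1.87% with a negative one. The 5 members with the lowest p in this test are given here, although none of them passed after adjustment. Psmd14 had an interaction of 0.52 ± 0.18 SE (adjusted p = 0.16) and Psmb5 one of 0.49 ± 0.22 SE (adjusted p = 0.288). Psmb5 had a change of -0.43 in the wild type and of 0.06 in Mist1KO pancreata. The interaction was -0.73 ± 0.26 SE for Psmg1 (adjusted p = 0.16), -0.69 ± 0.27 SE for Psmd7 (adjusted p = 0.204) and -0.45 ± 0.20 SE for Psmd3 (adjusted p = 0.276). A call in one genotype and none in the other, as for Psmd14 and Psmg1, is therefore not shown to differ between them.

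In all, 18 of the 42 tested members (42.9%) passed in at least 1 of the 4 comparisons and 24 in none, a share close to the 44.2% of all genes that did so. Psmb10, Psmc2 and Psmd8 passed after caerulein in both genotypes in the same direction (7.14% of members, against 10.4% of all genes). Psma3, Psmb10, Psmb4 and Psme1 passed between the genotypes after both injections in the same direction (9.52% of members, against 6.39% of all genes). The calls of Psmd8, Psmd14, Psmb10, Psmg1, Psme1, Psma3 and Psmb4 held under all 21 alternative analyses.

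The genes that regulate the family, and those that work with the particle, were read from separate lists. Of 6 tested regulators of proteasome genes, 4 rose in the wild type, with a median change of 0.78, and 1 in Mist1KO pancreata, with a median of 0.35, where 8.74% and 10.2% of all genes rose. Of the 44 calls that the lists outside the family gave over all comparisons, 15 held under every alternative. Nfe2l2 (Nrf2), a stress-responsive transcription factor, gave 276.0, 199.2 and 269.8 in wild type saline, 789.0, 739.5 and 578.7 in wild type caerulein, 303.8, 339.6 and 309.6 in Mist1KO saline and 674.1, 776.9 and 259.8 in Mist1KO caerulein arrays. It rose 2.7-fold in the wild type (1.43 ± 0.29 SE, adjusted p = 0.00379), and in Mist1KO pancreata, where caerulein replicate 3 lay below the saline arrays, its change of 0.67 ± 0.29 SE did not pass (adjusted p = 0.12). Nfe2l1 (Nrf1), the factor that raises proteasome genes when the proteasome is inhibited, gave 438.5, 266.2 and 356.3 in wild type saline and 474.6, 466.9 and 467.5 in wild type caerulein arrays, a change of 0.42 ± 0.15 SE that did not pass (adjusted p = 0.0653).

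Mafg and Mafk, small Maf partners of both factors, rose in the wild type, by 1.70 ± 0.33 SE (adjusted p = 0.00243) and 0.93 ± 0.20 SE (adjusted p = 0.00612). Mafk also rose in Mist1KO pancreata (0.69, adjusted p = 0.024), a call that 4 of 21 alternatives ended. No regulator passed in the interaction of genotype and injection. Ngly1, the deglycosylase that helps to activate Nrf1, gave 552.5, 628.1 and 616.5 in wild type saline, 834.4, 944.9 and 1036.1 in wild type caerulein, 475.7, 398.1 and 538.3 in Mist1KO saline and 550.7, 422.0 and 471.2 in Mist1KO caerulein arrays. It rose in the wild type (0.63 ± 0.14 SE, adjusted p = 0.00631), and after caerulein it was 1.92-fold lower in Mist1KO pancreata (-0.94 ± 0.14 SE, adjusted p = 0.000395).

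Of the genes that bring substrates to the particle, 10 shuttle factors and p97 cofactors were tested. In each genotype 2 rose and 1 fell after caerulein, with a median change of -0.01 in both, where 8.74% of all genes rose and 9.96% fell in the wild type and 10.2% rose and 14% fell in Mist1KO pancreata. Zfand5, which binds the proteasome and ubiquitin chains, gave 269.5, 355.1 and 311.1 in wild type saline and 850.4, 699.7 and 745.1 in wild type caerulein arrays and rose 2.38-fold (1.25 ± 0.16 SE, adjusted p = 8.91e-05). Zfand5 rose in Mist1KO pancreata too (0.52, adjusted p = 0.0278), a call that 8 of 21 alternatives ended. Ubqln1, a shuttle factor, gave 1089.2, 1075.4 and 1118.7 in Mist1KO saline and 581.0, 552.9 and 670.4 in Mist1KO caerulein arrays and fell 1.8-fold (-0.85 ± 0.11 SE, adjusted p = 0.000114). Ubqln1 also fell in the wild type (-0.42, adjusted p = 0.0205), a call that 6 of 21 alternatives ended. No gene of this list passed in the interaction. Rad23b, another shuttle factor, was 1.56-fold higher in Mist1KO than in wild type pancreata after caerulein (0.64 ± 0.10 SE, adjusted p = 0.000523), the single call of this list between the genotypes.

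Of 10 tested genes that activate or conjugate ubiquitin or ubiquitin-like proteins, 4 rose and 1 fell in the wild type. In Mist1KO pancreata 6 rose, and the median changes were 0.40 and 0.57. Of all genes 8.74% rose and 9.96% fell in the wild type, and 10.2% rose and 14% fell in Mist1KO pancreata. The 4 wild type rises include that of Ube2d2a, which was lost in 16 of 21 alternatives. Uba3, a subunit of the enzyme that activates the ubiquitin-like protein Nedd8, gave 174.8, 147.9 and 214.1 in wild type saline, 593.3, 489.1 and 461.1 in wild type caerulein, 217.0, 165.7 and 188.7 in Mist1KO saline and 483.4, 458.9 and 293.0 in Mist1KO caerulein arrays. It rose 2.71-fold in the wild type (1.44 ± 0.19 SE, adjusted p = 0.00015) and 2.02-fold in Mist1KO pancreata (1.02 ± 0.19 SE, adjusted p = 0.00157). Ube2n, an enzyme that builds ubiquitin chains, rose in Mist1KO pancreata (0.60 ± 0.15 SE, adjusted p = 0.00768) and was 1.79-fold higher there than in the wild type after caerulein (0.84 ± 0.15 SE, adjusted p = 0.00121). Between the genotypes 1 gene of this list was higher after saline, and 3 were higher and 1 lower after caerulein. Over all genes 6.14% were higher and 6.95% lower after saline, and 9.03% higher and 11.6% lower after caerulein.

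The 7 other tested components of the particle and its assembly gave 2 rises and 1 fall after caerulein in the wild type, where 8.74% of all genes rose and 9.96% fell, and no call in Mist1KO pancreata. Uchl5 (UCH37), a deubiquitinase bound to the base, was lower in Mist1KO pancreata. It gave 411.6, 359.9 and 331.6 in wild type saline, 279.7, 331.5 and 355.4 in wild type caerulein, 210.5, 187.6 and 145.2 in Mist1KO saline and 119.4, 143.8 and 117.7 in Mist1KO caerulein arrays, and the genotypes did not overlap. The difference was 1.95-fold after saline (-0.96 ± 0.16 SE, adjusted p = 0.00196) and 2.34-fold after caerulein (-1.22 ± 0.16 SE, adjusted p = 0.000148). Pomp, which guides the assembly of the beta rings, passed in no comparison.

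The interferon and MHC class I genes were read beside Psme1 and Psmb10, since interferon induces both. Of 13 tested, none rose and 2 fell after caerulein in the wild type, where 9.96% of all genes fell, and none passed in Mist1KO pancreata. Between the genotypes 2 were higher and 1 lower after each injection, where 6.14% of all genes were higher and 6.95% lower after saline and 9.03% higher and 11.6% lower after caerulein. Each of these counts is of 2 genes or fewer, and whether they differ from the shares of all genes was not tested. The summed signal of the 14 genes found ran from 6106.5 to 8062.4 in wild type saline, 5293.5 to 7495.3 in wild type caerulein, 7770.0 to 11089.7 in Mist1KO saline and 8352.5 to 9338.4 in Mist1KO caerulein arrays. H2-D1, a class I heavy chain, was higher in Mist1KO pancreata after caerulein (0.94 ± 0.22 SE, adjusted p = 0.00805), a difference that did not pass with the mean of its probe sets (adjusted p = 0.945, the highest over its alternatives, with 0.000508 the lowest). Whether these genes, Psme1 and Psmb10 share a source in the tissue was not tested.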

How the data were processed

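Whole-pancreas RNA from 12 mice, about 10 µg of each per the labels, was hybridised to 1-colour Affymetrix arrays, and samples were grouped by their titles. The deposited values are linear intensities, 1 for each of 22516 probe sets, with like 2% trimmed means on the arrays (150.8 to 151.2). The summarising software and the scaling target were not stated, and the number of arrays limits the precision. The platform annotation gave 1 symbol to 20240 probe sets, several to 682 and none to 1530, and 64 were controls. Before log2, 18.7 was added (20th percentile of the signals), and probe sets with a mean log2 value up to the 30th percentile were left out. All 4 groups entered 1 fit with limma 3.58.1 (lmFit; eBayes, trend by intensity; R 4.3.3), with Benjamini-Hochberg adjustment over 15716 probe sets and a threshold of 0.05. The fit was tested on simulated data. Promoter sequences came from RefSeq (GRCm38.p6), and figures were drawn with matplotlib 3.10.9.

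The members and gene lists were chosen with earlier results of these data known. Named were up to 8 members with the largest rise and fall that passed in each comparison, Psmb8, Psmb9, Psmb10, Psme1, Psme3, Psme4 and Psmf1, at least 2 members a class and up to 3 called genes of each other list, besides Nfe2l1 and Nfe2l2. Psmb6 and the other members, and which called genes of the other lists were named, were chosen after their values were seen. Alternatives were the offset, the filter, quantile normalization, centring, no trend, a replicate block, the mean of a gene's probe sets, fits of 2 groups and each array left out.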

Additional observations from a re-analysis of the deposited data

Results flagged for a closer look

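The response of Ube2g2, a ubiquitin-conjugating enzyme that serves the degradation of proteins from the endoplasmic reticulum, differed between the genotypes by the test of the interaction itself. Its signals were 233.8, 159.8 and 127.0 in wild type saline, 451.3, 449.6 and 347.1 in wild type caerulein, 228.2, 240.7 and 271.6 in Mist1KO saline and 249.9, 295.3 and 275.5 in Mist1KO caerulein arrays. Ube2g2 rose 2.31-fold after caerulein in the wild type (1.21 ± 0.18 SE, adjusted p = 0.000439) and had a change of 0.14 ± 0.18 SE in Mist1KO pancreata (adjusted p = 0.641). The interaction was -1.07 ± 0.26 SE (adjusted p = 0.0421 over all probe sets tested), and 14 of 20 alternatives ended this call, 10 of which each left out 1 array, with the adjusted p between 0.0119 and 0.208 over all of them.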

How the results depend on the processing

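Of 30 calls of members, 15 held under all 21 alternatives, 15 were lost under at least 1 and 0 reversed, and 17 held whichever array was left out. With the arrays centred on their medians, 4 members rose and 1 fell in the wild type, 4 fell in Mist1KO pancreata and 1 was lower in Mist1KO pancreata after caerulein. The mean of all probe sets gave 2 rises in the wild type. Without the intensity trend 1 member fell in the wild type and 1 was lower in Mist1KO pancreata after caerulein, and a fit of the 2 groups alone gave 1 fall in the wild type. With 1 array left out, rises and falls numbered 1 to 2 and 1 to 5 in the wild type and 2 to 4 and 3 to 9 in Mist1KO pancreata. Without wild type saline replicate 2 there were 4 falls in the wild type, without replicate 3 of either wild type group there was 1, and without wild type caerulein replicate 1 there were 5. Without wild type caerulein replicate 2 there were 2 rises. In Mist1KO pancreata there were 4 falls without saline replicate 2 or 3, 5 without caerulein replicate 1 and 3 without caerulein replicate 2, and 2 rises without caerulein replicate 1. Members higher and lower in Mist1KO pancreata numbered 3 to 4 and 1 after saline and 5 to 7 and 1 to 3 after caerulein, with 1 lower without wild type caerulein replicate 2 or Mist1KO caerulein replicate 1 or 2. The interaction gave 0 calls each time. Samples of the same number did not deviate together (18 pairs, r from -0.104 to 0.0452, none over 0.1), and with the replicate number as a block the calls of all probe sets after caerulein in the wild type went from 2975 to 2772, and 1 member rose and 3 fell there, 4 rose and 8 fell in Mist1KO pancreata, 3 were higher and 1 lower in Mist1KO pancreata after saline, and 7 and 3 after caerulein. Of 44 calls in the other lists 15 held throughout, and 2 turned with the mean of all probe sets, those of Txnl1 in the wild type (0.58 to -0.042) and between genotypes after caerulein (-0.62 to 0.042). Causes were not tested. Dim members, near a signal of 35.4, allow only wide errors.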

Other observations

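Psme3ip1, set aside as no subunit, gave 239.4, 167.1 and 321.3 in wild type saline, 128.3, 116.6 and 157.9 in wild type caerulein, 295.2, 172.6 and 293.5 in Mist1KO saline and 137.6, 103.2 and 168.2 in Mist1KO caerulein arrays. It fell after caerulein in Mist1KO pancreata (-0.80 ± 0.25 SE, adjusted p = 0.0317), and its change of -0.74 ± 0.25 SE in the wild type did not pass (adjusted p = 0.0543). Psmc3ip, also set aside, was too dim to be tested.

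Psma8, the alpha subunit of the testis, was too dim to be tested and gave 71.5, 43.9 and 41.3 in wild type saline, 16.7, 36.6 and 91.6 in wild type caerulein, 45.4, 34.6 and 48.9 in Mist1KO saline and 15.7, 3.4 and 4.4 in Mist1KO caerulein arrays. The Mist1KO caerulein arrays were the lowest.

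Of 3 tested markers of duct cells, Krt19 and Epcam rose after caerulein in both genotypes. Over all genes 8.74% rose in the wild type and 10.2% in Mist1KO pancreata. The summed signal of the 5 duct markers found ran from 374.5 to 437.9 in wild type saline, 1096.6 to 1141.4 in wild type caerulein, 459.0 to 526.9 in Mist1KO saline and 2293.2 to 2787.4 in Mist1KO caerulein arrays. The part of these cells in the changes of proteasome genes was not tested.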
